A study of Oryctolagus cuniculus with 8 samples.

Results

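Amacrine cells are the interneurons of the inner retina. The genes chosen here, 10 symbols in all, mark how these cells signal: GAD1 and GAD2 (GABA synthesis), SLC6A9 (glycine uptake), CHAT (acetylcholine synthesis), TH (dopamine synthesis) and the neuropeptide genes SST, NPY, VIP, TAC1 and PENK. Rows for 9 of them were found among 25666 genes, 19293 of them protein-coding, and TH was not analysed here. The values are FPKM, that is fragments scaled to gene length and library depth, in 8 retina libraries of male wild-type Chinchilla rabbits, 2 for each of 4 diets. ND was standard rabbit chow, HFD was that chow with 10% lard and 0.5% cholesterol, HSD was chow with 40% sucrose, and HFSD held the lard and cholesterol of HFD together with 35% sucrose. Feeding began at 12 to 16 weeks of age and lasted 6 months, and all 8 libraries are labelled with an age of 10 months. Each library was made from dissected retina of mixed cells, and the study speaks of a pair of retinas per diet. The sources used here do not say whether these came from separate rabbits, so the p-values measure the spread between these libraries, which may be that between the eyes of 1 animal. In such bulk RNA, fewer cells of a type and less RNA per cell cannot be told apart.

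Most amacrine cells release GABA or glycine, which inhibit bipolar, ganglion and other amacrine cells. Glutamate decarboxylases, encoded by GAD1 and GAD2, make GABA, and SLC6A9 encodes the transporter GlyT1 that glycinergic amacrine cells use to take glycine back up. Starburst amacrine cells, which shape direction selectivity, also release acetylcholine made by the enzyme that CHAT encodes. Smaller sets of amacrine cells, most of them GABAergic, also make peptides: somatostatin from SST, neuropeptide Y from NPY, vasoactive intestinal peptide from VIP, substance P from TAC1 and enkephalins from PENK.

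As a description that cannot show which cells hold the RNA of the chosen genes, 20 regulators and markers of amacrine cells were read. Rows were found for 18, all 18 passed the filter on low values (at least 1 FPKM in at least 2 libraries), and their summed level was between 524 and 629 FPKM in the 8 libraries. PAX6, a transcription factor of the inner retina, was between 83.6 and 101 FPKM, and CALB2, encoding calretinin, was between 165 and 250.0 FPKM. The libraries differed in other contents. Summed over 10 skeletal muscle genes, HSD2 held 542 FPKM and the other 7 libraries 1.23 to 1.95 FPKM. Summed over 8 pigment epithelium genes, the ND libraries held 323 and 237 FPKM and the other 6 held 22.2 to 76.6 FPKM. Activity-induced early genes summed to 2184 FPKM in ND1 and 945 FPKM in HFD2, against 136 to 642 FPKM in the other 6. Depths recovered from the FPKM values ran from 15764577 to 22785832 fragments.

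SLC6A9 and GAD1 stood highest, and with GAD2 they varied least. SLC6A9 had a median of 74.8 FPKM (66.1 to 80.3), GAD1 of 61.1 FPKM (54.7 to 62.0), and these ranges did not overlap. GAD2 followed with 24.8 FPKM (19.9 to 27.7), and its range overlapped those of NPY (median 21.7, range 14.5 to 24.8 FPKM) and TAC1 (median 21.2, range 12.2 to 33.2 FPKM). All 5 lay above CHAT in every library. CHAT had a median of 4.30 FPKM (3.04 to 6.98), VIP of 2.20 FPKM (0.719 to 6.73), SST of 1.12 FPKM (0.132 to 4.36) and PENK of 0.315 FPKM (0.0758 to 1.26), and each of these ranges overlapped the next. Expressed as the SD over the 8 libraries in percent of the mean, the spread was 4.24% for GAD1, 7.44% for SLC6A9 and 11.4% for GAD2, 18.8% for NPY, 29.1% for TAC1 and 31.5% for CHAT, but 75.3% for VIP, 98.8% for PENK and 102% for SST.

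**Figure D1:**
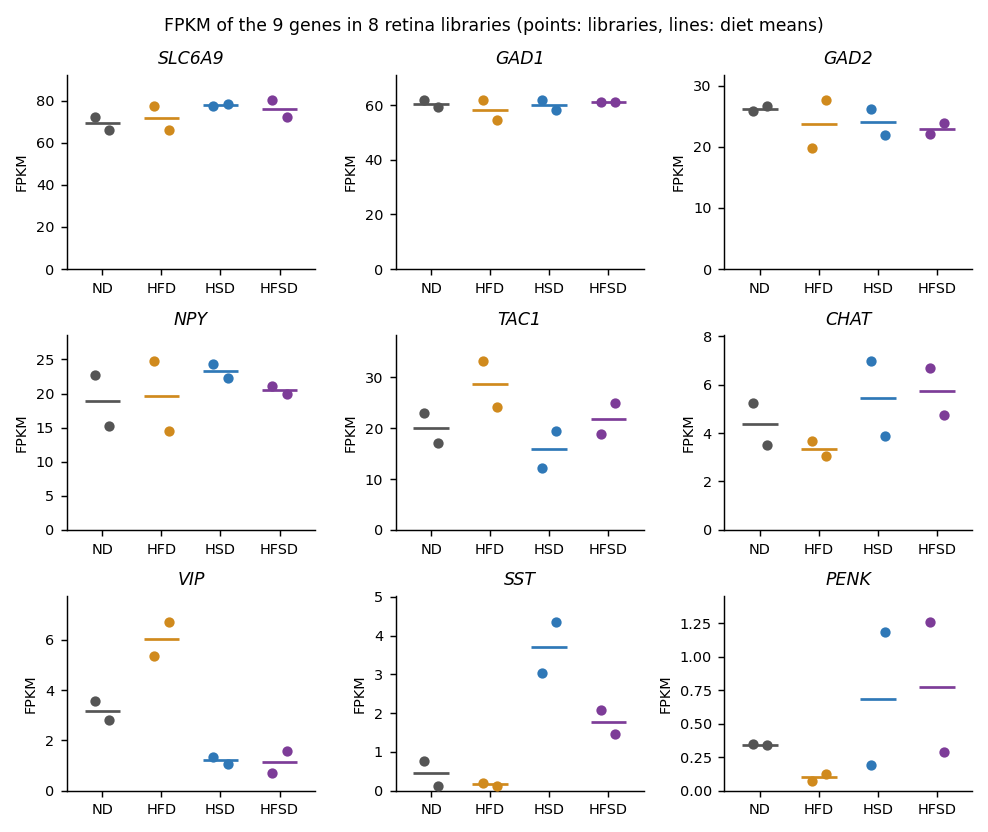
FPKM of the 9 genes (vertical axes, each starting at 0) by diet, with a point for each of the 2 libraries of a diet and a line at their mean. GAD1 stays between 54.7 and 62.0 FPKM, whereas SST is above 1.4 FPKM only in the 4 HSD and HFSD libraries and VIP is below 1.6 FPKM only in those same libraries.

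The genes were tested with limma on log2(FPKM + 1) in a model of all 8 libraries fitted to 12204 protein-coding genes, with Benjamini-Hochberg adjustment over all of them. Because 1 FPKM is added, the log2 fold changes understate the change of low genes. All 9 genes passed the filter. SST passed it only through the 4 libraries of the diets with sucrose and PENK only through HSD2 and HFSD1, so these genes had to differ in level to be tested at all. Against ND, none of the 9 was called at an adjusted p under 0.05 in HFD, HSD or HFSD, where 0.00819%, 0.0574% and 0.0164% of all tested genes were called. At an unadjusted p under 0.05 VIP passed in HFD, where 4.31% of all tested genes did, and SST and VIP passed in HSD and in HFSD, where 7.20% and 8.07% did. voom on the recovered fragments also called none of the 9 in any of these 3 comparisons. The 2 libraries of the diet and the 2 of ND did not overlap for 3 of the 9 genes in HFD (25.9% of all tested genes), 3 in HSD (39.0%) and 3 in HFSD (42.3%), shares near or below that background.

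When the 4 libraries of the diets with sucrose (HSD, HFSD) were compared with the 4 of the diets without (ND, HFD), 2 of the 9 genes were called, SST higher and VIP lower. In this comparison 0.344% of all tested genes were called, 0.0574% higher and 0.287% lower. The other 7 genes were not called. The values of SST and VIP in these libraries were known when the genes were chosen, and SST passed the filter only through the libraries with sucrose, so the count is a description and not independent evidence. The median log2 fold change of the 9 was 0.13, against -0.01 over all tested genes.

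SST encodes somatostatin, a peptide that dampens transmitter release and calcium entry in several retinal cell types. Its level was 0.778 (ND1) and 0.136 FPKM (ND2) with ND, 0.200 and 0.132 FPKM with HFD, 3.05 and 4.36 FPKM with HSD, and 2.07 and 1.47 FPKM with HFSD. All 4 libraries with sucrose were above all 4 without, which 6.39% of all tested genes also showed in this direction. The mean was 2.74 ± 1.26 FPKM (SD, n = 4) with sucrose and 0.311 ± 0.312 FPKM (SD, n = 4) without, a ratio of 8.80. Without ND1 the mean of the other 3 libraries without sucrose was 0.156 FPKM and the ratio 17.6, and it was 7.06 to 10.2 with any other library left out. On the log2(FPKM + 1) scale the difference was 1.48 (SE 0.20, 95% confidence interval 1.01 to 1.94, limma adjusted p = 0.0408). As SST entered the test only through the libraries with sucrose, this p is given as a description, and with no filter it was 0.0815. The comparison with ND gave 1.71 (SE 0.28, adjusted p = 0.153) in HSD and 0.96 (SE 0.28, adjusted p = 0.471) in HFSD.

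These SST levels rest on few fragments. The libraries without sucrose held 19, 3, 5 and 3 fragments (ND1, ND2, HFD1, HFD2) and those with sucrose 60, 94, 59 and 29 (HSD1, HSD2, HFSD1, HFSD2). The exact 95% Poisson interval, which covers counting error only, was 0.468 to 1.21 FPKM in ND1 and 0.985 to 2.11 FPKM in HFSD2. These intervals, of the highest library without sucrose and the lowest with it, overlapped. Intervals of the other 3 libraries without sucrose ended at or below 0.468 FPKM.

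VIP encodes a peptide that raises cyclic AMP through its receptors and marks wide-field amacrine cells. Its level was 3.57 and 2.81 FPKM with ND, 5.36 and 6.73 FPKM with HFD, 1.36 and 1.06 FPKM with HSD, and 0.719 and 1.60 FPKM with HFSD. All 4 libraries with sucrose were below all 4 without, which 6.48% of all tested genes also showed in this direction. Both HFD libraries were above both ND libraries, as for 12.5% of all tested genes, while HSD and HFSD overlapped. The mean was 1.18 ± 0.38 FPKM (SD, n = 4) with sucrose and 4.62 ± 1.77 FPKM (SD, n = 4) without, a ratio of 3.90 in favour of the diets without. On the log2(FPKM + 1) scale VIP fell by 1.33 (SE 0.17, 95% confidence interval -1.73 to -0.92, limma adjusted p = 0.0385), from 79 to 195 fragments a library without sucrose to 26 to 40 with it.

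Neither call was stable. SST was called in 7 of 20 alternative analyses (adjusted p 0.0256 to 0.233) and VIP in 5 of 21 (0.0346 to 0.233). The direction held in every one, with log2 fold changes of 1.32 to 3.37 for SST and -1.93 to -1.18 for VIP. With 1 library fewer, the adjusted p of SST was 0.108 without HFD1, 0.0919 without HFD2, 0.0729 without HSD1, 0.123 without HSD2, 0.166 without HFSD1 and 0.116 without HFSD2. For VIP it was 0.0549 without ND1, 0.0954 without HFD1, 0.0919 without HFD2, 0.0810 without HSD1, 0.115 without HSD2, 0.0978 without HFSD1 and 0.0547 without HFSD2. With both ND libraries, the pigment-rich ones, left out, SST differed by 1.62 (adjusted p = 0.0555) and VIP by -1.70 (adjusted p = 0.0582). With ND1, richest in early genes, and HSD2, rich in muscle genes, both left out, the differences were 1.54 (adjusted p = 0.0658) and -1.21 (adjusted p = 0.136), and 21 of all tested genes were called. With HFD2, second in early genes, and HSD2 left out, the differences were 1.35 and -1.21 (adjusted p = 0.233 for each), and 0 of all tested genes were called by limma, 2142 having an unadjusted p under 0.05.

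**Figure D2:**
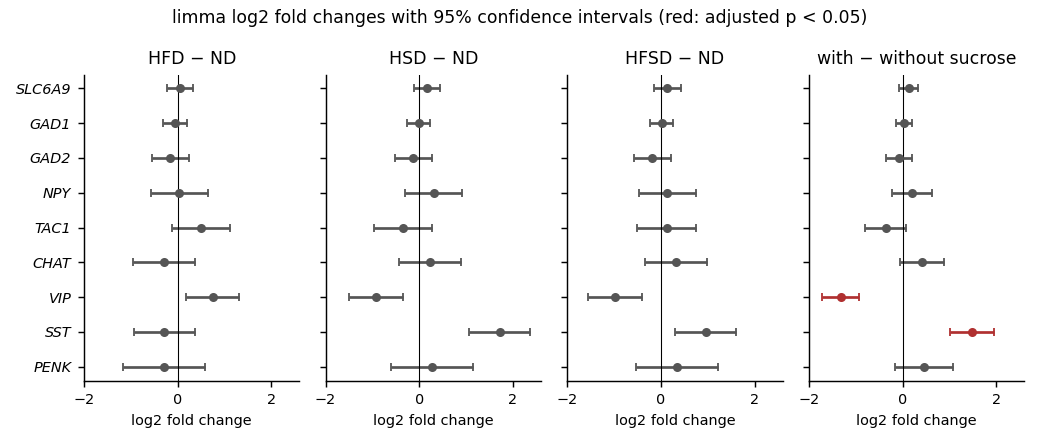
limma log2 fold changes (horizontal axes, log2 scale) of the 9 genes in 4 comparisons, with 95% confidence intervals as bars and called genes in red. Only SST (1.48) and VIP (-1.33) are called, both in the comparison of diets with and without sucrose.

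The ratio of VIP to SST within a library is free of the scaling by depth. It was 4.59, 20.7, 26.7 and 51.1 in ND1, ND2, HFD1 and HFD2, and 0.446, 0.243, 0.347 and 1.08 in HSD1, HSD2, HFSD1 and HFSD2. VIP thus exceeded SST in every library without sucrose and, among those with sucrose, in HFSD2 alone. Among the libraries without sucrose, ND1 had the most SST, and among those with sucrose HFSD2 had the least SST and the most VIP.

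**Figure D3:**
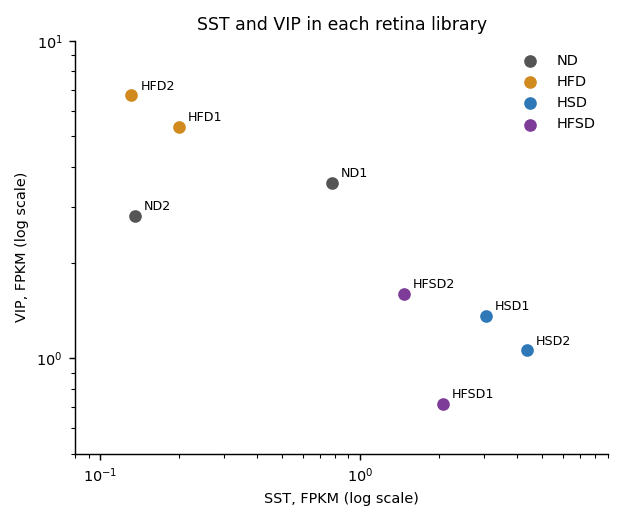
SST (horizontal) against VIP (vertical), both in FPKM on log axes, with 1 point per library. The libraries without sucrose lie above 2.8 FPKM of VIP and below 0.8 FPKM of SST, and those with sucrose lie below 1.6 FPKM of VIP and above 1.4 FPKM of SST.

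Several genes that mark dorsal or ventral retina also differed between the diets with and without sucrose. In rabbits, as background, somatostatin cells are sparse and lie mainly in ventral retina. TBX5, a dorsal transcription factor, was 3.27 and 9.85 FPKM in ND, 6.61 and 11.7 FPKM in HFD, but 0.0175 to 0.560 FPKM in the 4 libraries with sucrose (log2 fold change -2.82, SE 0.32, limma adjusted p = 0.0271). It passed the filter only through the libraries without sucrose, so this p is a description. EFNB2, a dorsal ephrin, was 12.3 to 24.2 FPKM without sucrose and 2.40 to 6.76 FPKM with it (log2 fold change -2.11, SE 0.26, adjusted p = 0.0311). OPN1SW, the short-wavelength cone opsin that is denser in ventral retina, was 67.6 to 114 FPKM without sucrose and 209 to 290.3 FPKM with it (log2 fold change 1.64, SE 0.14, adjusted p = 0.00980). OPN1SW was also called higher in HSD against ND (1.98, SE 0.20, adjusted p = 0.0367).

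At an unadjusted p under 0.05 with sucrose, 18.3% of all tested genes passed, 9.17% higher and 9.16% lower, and 0.344% were called. Over the whole lists, 6 of the 7 dorsal markers were lower at that threshold, 2 of them called, and their sum was 93.7 to 175 FPKM without sucrose against 61.3 to 72.0 FPKM with it. Of these dorsal markers TBX5 and BMP4, and LRAT among the pigment epithelium genes, passed the filter only through libraries without sucrose. Of the 6 ventral markers 5 were tested. Of these, OPN1SW, the ephrin receptor gene EPHB2 and ALDH1A3, a retinoic acid enzyme, were higher at that threshold, and OPN1SW was called. The ephrin receptor gene EPHB3 was lower (1.36 to 1.78 FPKM without sucrose, 0.687 to 1.21 FPKM with it), and the regulator VAX2 did not pass (20.9 to 39.6 against 30.8 to 43.3 FPKM). The sum of the ventral list, most of it OPN1SW, was 106 to 159 FPKM against 255 to 358 FPKM. VAX1, a ventral regulator, was at 0 in every library except the HFSD ones (0.152 and 0.219 FPKM). Of the 7 Müller glia markers 3 were lower and 0 higher at that threshold, with a sum of 2073 to 2918 FPKM without sucrose against 1260 to 1472 FPKM with it. All 7 tested of the 8 pigment epithelium genes were lower, but 6 of them were also lower in HFD against ND. Their sum was 323 and 237 FPKM in ND, 76.6 and 44.5 FPKM in HFD, and 22.2 to 65.4 FPKM with sucrose. Of the 18 amacrine regulators and markers 3 were higher and 1 lower at that threshold. Of 6 horizontal cell genes 3 were higher and 0 lower, and of 8 bipolar cell genes 0 were higher and 3 lower. Of 9 ganglion cell genes 1 was higher and 1 lower, and of 5 rod genes 0 passed. By sign alone 14 of the 18 amacrine genes were higher with sucrose and 16 in HFSD, against 48.7% and 49.2% of all tested genes. The part of these marker genes in the SST and VIP results was not tested.

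**Figure D4:**
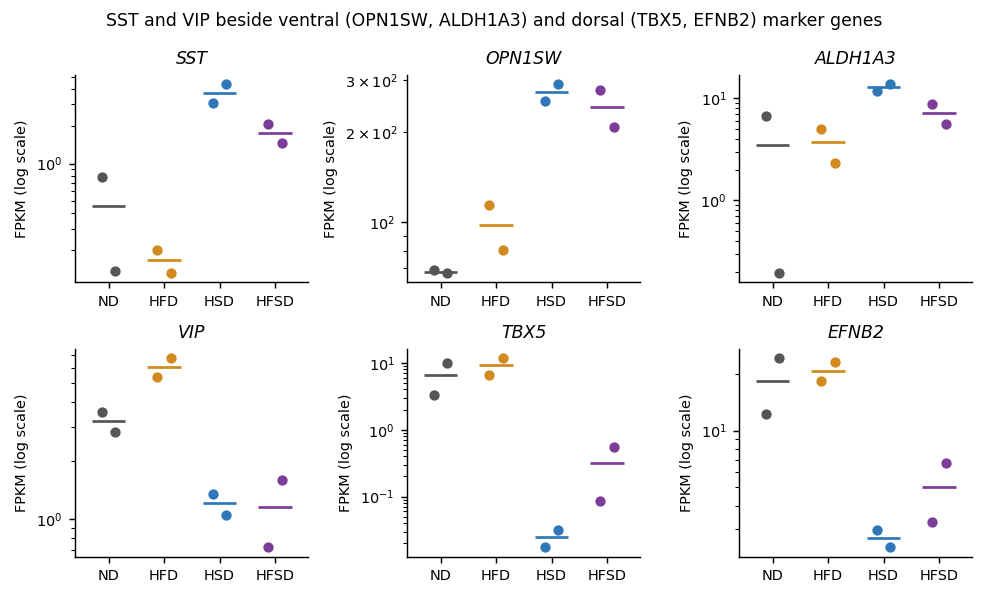
FPKM on log axes by diet, with points for libraries and lines for diet means, of SST and VIP beside the ventral genes OPN1SW and ALDH1A3 and the dorsal genes TBX5 and EFNB2. OPN1SW separates the diets with sucrose from those without in the same direction as SST, and TBX5 and EFNB2 do so in the direction of VIP, while ALDH1A3 overlaps.

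For the GABA genes no diet difference was resolved. GAD1 was 60.6 ± 1.97 FPKM with ND, 58.3 ± 5.07 with HFD, 60.03 ± 2.58 with HSD and 61.1 ± 0.0139 with HFSD (SD, n = 2 each), and the sucrose comparison gave a log2 fold change of 0.03 (95% confidence interval -0.15 to 0.21). GAD2 was 26.2 ± 0.575, 23.8 ± 5.52, 24.1 ± 3.07 and 22.9 ± 1.27 FPKM in the same order, with -0.08 (-0.36 to 0.20) for sucrose. Both HFSD libraries (22.0 and 23.8 FPKM) lay below both ND libraries for GAD2, an outcome that 20.6% of tested genes shared in this direction. The ratio of GAD2 to GAD1 was between 0.321 and 0.506, with both extremes in HFD.

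Of 6 other genes of GABA handling, 5 were found and tested, and none was called in any of 6 comparisons. SLC32A1, the vesicular transporter that loads GABA and glycine, was 37.2 to 42.2 FPKM in all 8 libraries. At an unadjusted p under 0.05 with sucrose, 3 were lower and 0 higher. These were SLC6A13 and SLC6A11, membrane GABA transporters, and ABAT, the enzyme that breaks GABA down, where 9.16% of all tested genes were lower. Müller glia markers (3 of 7) and pigment epithelium genes (7 of 7 tested, 6 of them also in HFD against ND) were lower at that threshold too. The part of both lists in these values was not tested. SLC6A13 was 2.89 to 5.33 FPKM without sucrose and 0.895 to 2.14 FPKM with it (log2 fold change -0.97, SE 0.17, adjusted p = 0.0810). The list had a median log2 fold change of -0.38 with sucrose, against -0.01 over all tested genes.

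SLC6A9 was 69.2 ± 4.21 FPKM with ND, 71.8 ± 7.99 with HFD, 77.9 ± 0.485 with HSD and 76.2 ± 5.81 with HFSD (SD, n = 2 each). Both HSD libraries (77.5 and 78.2 FPKM) were above both ND libraries (72.2 and 66.2 FPKM), which 19.3% of tested genes showed in this direction. The log2 fold change was 0.17 (SE 0.12, adjusted p = 0.802) in HSD and 0.13 (95% confidence interval -0.07 to 0.33) for sucrose. Among 7 rows of other glycine genes that were tested (GCSH in 2 of them), 1 was lower and 0 were higher at an unadjusted p under 0.05 with sucrose, the serine hydroxymethyltransferase SHMT2, where 9.16% of all tested genes were lower. SLC6A5, the second glycine transporter, stayed at 0.320 to 0.874 FPKM and was below the filter.

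CHAT was 5.26 and 3.52 FPKM with ND, 3.66 and 3.04 FPKM with HFD, 6.98 and 3.88 FPKM with HSD, and 6.70 and 4.73 FPKM with HFSD. The diets overlapped, since HSD2 lay below ND1, and the sucrose comparison gave 0.42 (SE 0.20, 95% confidence interval -0.05 to 0.89, limma adjusted p = 0.310). SLC18A3, the vesicular acetylcholine transporter, lies next to CHAT in the RefSeq table of rabbit genes, and reads of the 2 genes may be hard to separate. SLC18A3 had its highest value, 9.37 FPKM, in HSD1, where CHAT was highest too, and was 4.20 to 6.20 FPKM in the other 7 libraries. SLC5A7, the choline transporter that limits acetylcholine synthesis, was 2.02 to 2.55 FPKM without sucrose and 2.93 to 3.87 FPKM with it, without overlap, as 6.39% of all tested genes were in this direction (log2 fold change 0.45, SE 0.12, adjusted p = 0.156).

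Receptors for acetylcholine and dopamine were listed too. Of 18 genes 13 were found and 10 tested, and 0 were called in any comparison by limma. At an unadjusted p under 0.05 with sucrose, 4 were higher and 0 lower, where 9.17% and 9.16% of all tested genes were. CHRM2, a muscarinic receptor, was 1.61 to 3.03 FPKM without sucrose and 3.35 to 4.12 FPKM with it. CHRM3, another muscarinic receptor, was 3.24 to 4.70 against 5.70 to 6.43 FPKM, and DRD1, the D1 dopamine receptor, 15.8 to 21.4 against 25.2 to 29.5 FPKM. The values of these 3 did not overlap between the diets with and without sucrose, as for 6.39% of all tested genes in this direction, whereas those of CHRNA3, a nicotinic subunit, did (2.99 to 4.90 against 4.70 to 6.71 FPKM). Their adjusted p values were between 0.113 and 0.164.

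**Figure D5:**
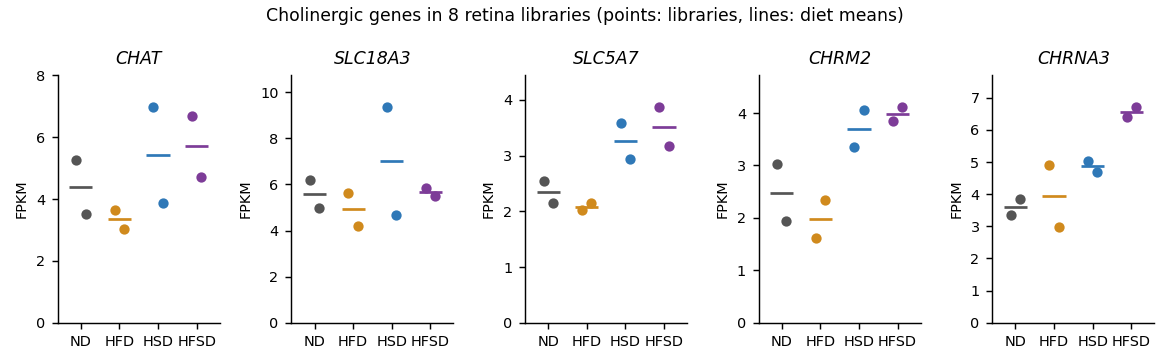
FPKM (vertical axes, each starting at 0) by diet of CHAT, its partners SLC18A3 and SLC5A7, and the acetylcholine receptor genes CHRM2 and CHRNA3, with points for libraries and lines for diet means. SLC5A7 and CHRM2 are higher in all 4 libraries with sucrose than in all 4 without, and the other 3 genes overlap.

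Without a value for TH, dopamine cells could be followed only through partner genes. SLC18A2, the vesicular monoamine transporter, was 2.97 to 4.46 FPKM in 7 libraries and 1.30 FPKM in HSD2. DDC, which turns L-DOPA into dopamine, was 0.382 to 0.820 FPKM and below the filter. Of 10 listed genes 8 were found and 6 tested, of which 2 were lower and 0 higher at an unadjusted p under 0.05 with sucrose, where 9.16% of all tested genes were lower: QDPR, which regenerates the cofactor of tyrosine hydroxylase, and MAOB, which degrades amines. None was called. The dopamine transporter gene SLC6A3 and the peptide gene CCK were not analysed here.

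Among the 5 peptide genes of the chosen set TAC1 and NPY stood highest, other peptide genes not being ranked here. The 5 peptides summed to 35.6 to 63.7 FPKM, of which TAC1 made up 29.6% to 53.0% and NPY 31.8% to 59.2%. VIP made up 7.11% to 14.7% of the sum without sucrose and 1.63% to 3.31% with it, and SST 0.288% to 1.55% without and 3.05% to 9.03% with it. PENK stayed at or below 2.87%.

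TAC1 was 22.9 and 17.2 FPKM with ND, 33.2 and 24.2 FPKM with HFD, 12.2 and 19.5 FPKM with HSD, and 18.8 and 24.9 FPKM with HFSD. Both HFD libraries were above both ND libraries, which 12.5% of tested genes showed in this direction, but the log2 fold change of 0.50 (SE 0.27) in HFD had an adjusted p of 0.998. Between the diets with and without fat TAC1 differed by 0.48 (SE 0.19, unadjusted p = 0.0367, adjusted p = 0.9996), and the 4 libraries with fat (18.8 to 33.2 FPKM) overlapped the 4 without (12.2 to 22.9 FPKM).

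NPY was 22.6 and 15.2 FPKM in ND and 24.8 and 14.5 FPKM in HFD, so that the libraries within each of these diets differed more than the means of both diets did. In HSD it was 24.3 and 22.2 FPKM and in HFSD 21.2 and 19.9 FPKM. The sucrose comparison gave 0.21 (95% confidence interval -0.22 to 0.64).

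PENK had the lowest median of the 9. It was 0.348 and 0.342 FPKM with ND, 0.0758 and 0.124 FPKM with HFD, 0.192 and 1.18 FPKM with HSD, and 1.26 and 0.288 FPKM with HFSD. Only HSD2 and HFSD1, with 27 and 38 fragments, exceeded 1 FPKM, and the other 6 libraries held 2 to 9 fragments. The sucrose comparison gave 0.45 (SE 0.26, adjusted p = 0.395). Both HFD libraries lay below both ND libraries, as for 13.3% of tested genes, yet the Poisson intervals of HFD2 (0.0257 to 0.364 FPKM) and ND1 (0.159 to 0.661 FPKM) overlapped.

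Diets with fat and the interaction of fat and sucrose gave no called gene among the 9 by limma or voom, where 0.00819% of all tested genes were called in each. At an unadjusted p under 0.05 TAC1 and SST passed for fat (3.20% of all tested genes did) and VIP for the interaction (3.74% did). SST differed by -0.52 (SE 0.20) with fat, and the interaction of VIP was -0.81 (SE 0.34, unadjusted p = 0.0495, adjusted p = 0.999).

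The partner lists of transmitters, peptides, their receptors and the granule machinery, 54 tested genes in all without the 9, held no called gene in any of the 6 comparisons by limma. Of the 54, 5 passed an unadjusted p under 0.05 in HFD (4.31% of all tested genes did), 6 in HSD (7.20%), 9 in HFSD (8.07%), 17 with sucrose (18.3%), 6 with fat (3.20%) and 4 in the interaction (3.74%). CHRNB3, a nicotinic receptor subunit, was 11.3 and 14.4 FPKM with ND and 5.07 and 5.42 FPKM with HFD, against 11.04 and 6.47 FPKM with HSD and 8.36 and 12.1 FPKM with HFSD. Its log2 fold change was -1.14 (SE 0.26, unadjusted p = 0.00284, limma adjusted p = 0.907) in HFD, and its interaction was 1.36 (unadjusted p = 0.00696). PDYN, encoding the opioid peptide precursor prodynorphin, was lower in HFD (-0.63, unadjusted p = 0.0316) and had an interaction of 1.33 (unadjusted p = 0.00523). PTS, an enzyme of tetrahydrobiopterin synthesis, was higher in HFD (0.73, unadjusted p = 0.0208) and had an interaction of -1.14 (unadjusted p = 0.0138). Adjusted p values of these genes in both comparisons were between 0.907 and 0.999.

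The ratio of diet means after adding 1 FPKM was also set against the limits of the study, 1.54 and 0.65, which take no account of spread. Past them were VIP in HFD (1.68), SST (3.23) and VIP (0.527) in HSD, and SST (1.90) and VIP (0.515) in HFSD. With 1 library left out, VIP in HFD came inside the limits without HFD2 (1.52), where TAC1 passed (1.63), and TAC1 also passed without ND1 (1.64). In HSD, PENK passed without HSD1 (1.62) and TAC1 without HSD2 (0.626), and in HFSD PENK passed without HFSD2 (1.68). With all libraries 1, 2 and 2 of the 9 genes were past a limit, where 1.76%, 3.95% and 3.43% of all protein-coding genes were.

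Other amacrine peptides, peptide receptors and the granule machinery were listed too. Of 12 other peptide genes 8 were found and 6 tested. With sucrose 1 was higher and 0 lower at an unadjusted p under 0.05, NTS, encoding neurotensin, which was 0.538 to 3.002 FPKM without sucrose and 2.71 to 5.96 FPKM with it (log2 fold change 1.02, SE 0.30, adjusted p = 0.165). Of all tested genes 9.17% were higher and 9.16% lower at that threshold. ADCYAP1, encoding the peptide PACAP that shares receptors with VIP, was 1.49 to 3.64 FPKM with overlapping diets.

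Of 18 peptide receptor genes 15 were found and 8 tested. SSTR2, a somatostatin receptor, was 4.30 to 9.56 FPKM and gave 0.07 (SE 0.21) for sucrose, and VIPR2, a receptor of VIP, was 7.11 to 13.0 FPKM and gave 0.29 (SE 0.15). TACR1 and TACR3, receptors for tachykinins such as substance P, were 2.66 to 3.97 and 1.43 to 2.24 FPKM. NPY2R (0 to 0.629 FPKM) and the enkephalin receptor gene OPRD1 (0 to 0.193 FPKM) were below the filter. At an unadjusted p under 0.05 with sucrose OPRM1, the mu opioid receptor, was higher (0.278 to 0.580 FPKM without, 0.702 to 1.27 FPKM with) and ADCYAP1R1, the PACAP receptor, was lower, where 9.17% of all tested genes were higher and 9.16% lower. OPRM1 passed the filter only through HSD1 and HFSD2, so it had to be higher with sucrose to be tested. The 9 tested of 13 genes for peptide processing and dense-core granules included SCG2 as higher and PCSK2 and PAM as lower at that threshold, against the same shares of all tested genes, and none of either list was called.

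The 2 genes most like each of the 9 were taken from 7626 tested genes with a mean of at least 5 FPKM, by Pearson's r of log2(FPKM + 1) over the 8 libraries, which share their diets and depth. With so many candidates and 8 libraries, high values of r arise readily, and they are given as a description. For SST these were GREB1 (r = 0.98) and PDE6C, the cone phosphodiesterase (r = 0.97), which was 23.6 to 30.5 FPKM without sucrose and 38.7 to 50.9 FPKM with it. For VIP they were IBA57 (r = 0.97) and BAMBI, a pseudoreceptor that dampens BMP and TGF-beta signalling (r = 0.95), which was 23.8 to 31.8 FPKM without sucrose and 10.1 to 15.6 FPKM with it. For the transmitter genes they were PSMC3IP and LBH for GAD1 (0.98 and 0.97), ADGRL3 and CPLANE2 for GAD2 (0.97 and 0.96), CACUL1 and UTP23 for SLC6A9 (0.94 and 0.92), and DBN1 and CRTAC1 for CHAT (0.95 and 0.94). For the other peptides they were CACUL1 for NPY (0.94), LMBRD1 and PSMD13 for TAC1 (0.93 and 0.93), and AANAT and PIK3CB for PENK (0.93 and 0.93). AANAT, the melatonin pathway enzyme, was highest in HSD2 (28.7 FPKM) and HFSD1 (31.8 FPKM), the libraries in which PENK was highest.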

How the data were processed

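Retina RNA was sequenced from TruSeq libraries. The authors trimmed reads, mapped them with TopHat2 after FastQC and deposited FPKM per gene and library under a name that speaks of counts. The genome build and the strand setting are not given in the sources used here, so no coordinates or sequences are printed. Symbols were matched exactly, and 0 value columns lacked a sample. FPKM values of a gene were whole multiples of 1 fragment (100% of genes, tolerance 0.001), which gave fragments, gene lengths and depths. Protein-coding genes that reached 1 FPKM in 2 or more libraries entered limma 3.58.1 (R 4.3.3), fitted to log2(FPKM + 1) as 1 model of 4 diets with 6 contrasts and variances that follow the mean. The test was checked on simulated data, where 200 genes with a mean above 50 fragments were changed by a log2 of 2 with sucrose. It called all 200, with 10 false calls. The mean fragments of SST and PENK lie below that level, so this check does not cover them. Alternatives changed the pseudocount (0.1, 0.5), filter (none, 5 FPKM), scaling, variance model, tool (voom) and libraries, or added a replicate block. The text names the 9 genes, fixed partners whatever their values, list genes called in any contrast, and the 2 genes most like each (1 for NPY, the other not being reported here), besides some list genes under an unadjusted p of 0.05 and examples, which were chosen after their values were seen. The genes, lists and rules were chosen with earlier results of these data known. Leaving out both ND libraries, HFD2 and HSD2, or ND1 and HSD2, was also chosen after seeing the data.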

Additional observations from a re-analysis of the deposited data

Results flagged for a closer look

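Among the 4 libraries without sucrose, the SST level of ND1 (0.778 FPKM) stood apart from the others, with a gap to the next library (0.200 FPKM) that was 0.893 of the whole range. The 9 genes were examined in 18 groups of 4 libraries and this was the 1 flagged. About 1 in 20 such groups would be flagged by chance.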

How the results depend on the processing

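The count of 2 genes called for sucrose became 0 with a pseudocount of 0.1, with no filter, with a filter at 5 FPKM (which removes SST and PENK from the test), with voom, with the replicate block, with both ND libraries left out, with HFD2 and HSD2 left out and with ND1 and HSD2 left out. It became 1 (SST) when scaled to summed fragments, and was 0 to 2 with 1 library left out, where the lone library of that diet is assumed to vary like the others. With the replicate block the adjusted p was 0.0638 for SST and 0.0628 for VIP. Replicate numbers did not pair the libraries, since deviations of same-numbered libraries correlated at -0.165 to 0.0813 between diets. The blocked fit changed no other call among the 9, but lowered the sucrose calls over all genes from 42 to 25. Over all genes they numbered 8 with no filter, 18 with voom, 141 with only the groups compared, and 4 to 82 with 1 library left out. Under the fold limits, HFD passed 3 genes with a pseudocount of 0.1 (SST and PENK lower, VIP higher), and 1 to 2 with 1 library left out, with TAC1 beside VIP without ND1 and in place of VIP without HFD2. HSD and HFSD passed 2 to 3 genes with 1 library left out, SST and VIP each time. With a pseudocount of 0.1, PENK passed as higher beside SST and VIP in both HSD and HFSD. GAD1 in HSD turned from -0.0128 to 0.0232 when scaled to summed fragments and to 0.0245 with voom, and GAD2 for sucrose turned from -0.08 to 2.6e-05 with both ND libraries left out and to 0.10 with HFD2 and HSD2 left out. With 1 library left out the sign also turned in 20 of 288 log2 fold changes of the comparisons with ND and of the sucrose comparison, and in 26 of 144 of the fat comparison and the interaction. In HFD the ranges were GAD1 -0.144 to 0.0308, GAD2 -0.385 to 0.0733, SLC6A9 -0.0637 to 0.161, SST -0.609 to 0.0375 and NPY -0.33 to 0.40. In HSD they were GAD1 -0.0559 to 0.0302, GAD2 -0.25 to 0.00046, CHAT -0.12 to 0.59 and PENK -0.17 to 0.70. In HFSD they were GAD1 -0.0185 to 0.0466, NPY -0.136 to 0.41, TAC1 -0.0788 to 0.318 and PENK -0.0628 to 0.75, and for sucrose GAD1 -0.0148 to 0.0726 and GAD2 -0.193 to 0.0367. With 3 to 19 fragments of SST in the libraries without sucrose, counting error limits its ratio.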
